A study of Saccharomyces cerevisiae with 17 samples.

Results

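Cytosolic ribosomal proteins are the proteins of the yeast ribosome outside mitochondria, named RPL in the large and RPS in the small subunit. Every gene whose symbol starts with RPL or RPS followed directly by a number was taken, with 1 single-gene probe set each, which gave 75 members among the 5656 genes measured in this way, 42 of the large and 33 of the small subunit. The reference annotation lists 132 genes under this naming, so 57 were not members. Of these, 54 lay on 27 probe sets that each stand for a pair of near-identical paralogs and are described separately, and 3 were on no probe set named in the annotation used here. All 75 members were above the background of the arrays on average, and the lowest value of any member on any array was a log2 signal of 6.81, against a background of 3.80.

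The ribosome is built from ribosomal RNA and one copy of most of these proteins, and making it takes a large share of a growing yeast cell's transcription and translation. The promoters of most ribosomal protein genes bind the factor Rap1 together with Fhl1 and its coactivator Ifh1, and signalling through TORC1 and protein kinase A raises or lowers the genes as a group with growth and stress. Because of an ancient genome duplication, many of the genes exist as an A and a B copy that encode nearly the same protein. Several of the proteins are known to repress their own genes, for example through splicing or decay of the transcript.

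The study grew Saccharomyces cerevisiae CEN.PK113-7D (MATa MAL2-8C SUC2) without oxygen and with glucose as the limiting nutrient in chemostats at a dilution rate of 0.03 per h, and asked how far responses to a daily temperature cycle can be read from cultures at constant temperature. Cultures at a constant 12 °C (SS_12) or a constant 30 °C (SS_30) were sampled at steady state, with independent duplicate cultures at each temperature. Duplicate cultures in the cycle (DTC) followed a sine wave of 24 h and were sampled during cycles 5 and 6 at 30 °C (DTC_30, hour 0), 21 °C while cooling (DTC_21_decreasing, hour 6), 14.6 °C (DTC_14.6, hour 9), 12 °C (DTC_12, hour 12), 21 °C while warming (DTC_21_increasing, hour 18) and 27.4 °C (DTC_27.4, hour 21). Each group had 2 arrays in the comparisons. The 12 cycle arrays used all derive from 2 cultures, which the labels do not assign to arrays; the tests nevertheless count each array as independent. All groups share strain, medium, anaerobiosis and dilution rate. A shared dilution rate does not by itself make growth rate equal at all cycle points, and growth rate was not compared here. Since the RNA comes from whole cultures, fewer cells in one state and less RNA per cell cannot be told apart.

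Values are log2 of the array signal, on which a difference of 1 is a doubling. Between 5190 and 5320 genes lay above background on each of the 16 arrays, and the correlation between the arrays of a group ran between 0.956 and 0.984 over genes. The ratio of signal at both ends of the actin transcript ACT1, a sign of RNA quality, was 1.16 to 1.82, with 1.42 and 1.28 at DTC_21_decreasing against 1.22 and 1.32 at DTC_21_increasing. The 5 markers of MATa yeast were above background on all 16 arrays. Of the 3 markers of the opposite mating type, MF(ALPHA)1 lay between 7.59 and 11.37 and STE3 between 5.13 and 6.82, and MF(ALPHA)2 was above background on 6 arrays; whether these bear on the results was not tested. In what follows a gene was called higher or lower at an adjusted p under 0.05, from limma with Benjamini-Hochberg adjustment over all 5656 genes, and the percentage given for all genes is the share called in the same direction.

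Over the cycle the ribosomal protein genes stood highest in the cold, lowest while the culture warmed through 21 °C, and between these levels at 27.4 °C. The median log2 signal of the 75 members was 11.14 ± 0.11 at DTC_30, 11.29 ± 0.13 at DTC_21_decreasing, 11.47 ± 0.09 at DTC_14.6, 11.44 ± 0.13 at DTC_12, 10.26 ± 0.05 at DTC_21_increasing and 10.80 ± 0.07 at DTC_27.4 (SD, n = 2 arrays each). At constant temperature it was 11.68 ± 0.13 in SS_12 and 11.08 ± 0.17 in SS_30. The members' share of the summed signal of all genes was 9.44% at DTC_30, 12.0% at DTC_14.6, 4.97% at DTC_21_increasing and 7.55% at DTC_27.4. Steady-state cultures gave 12.7% in SS_12 and 9.28% in SS_30. Both arrays of DTC_21_increasing lay below all other arrays in median and in share.

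**Figure D1:**
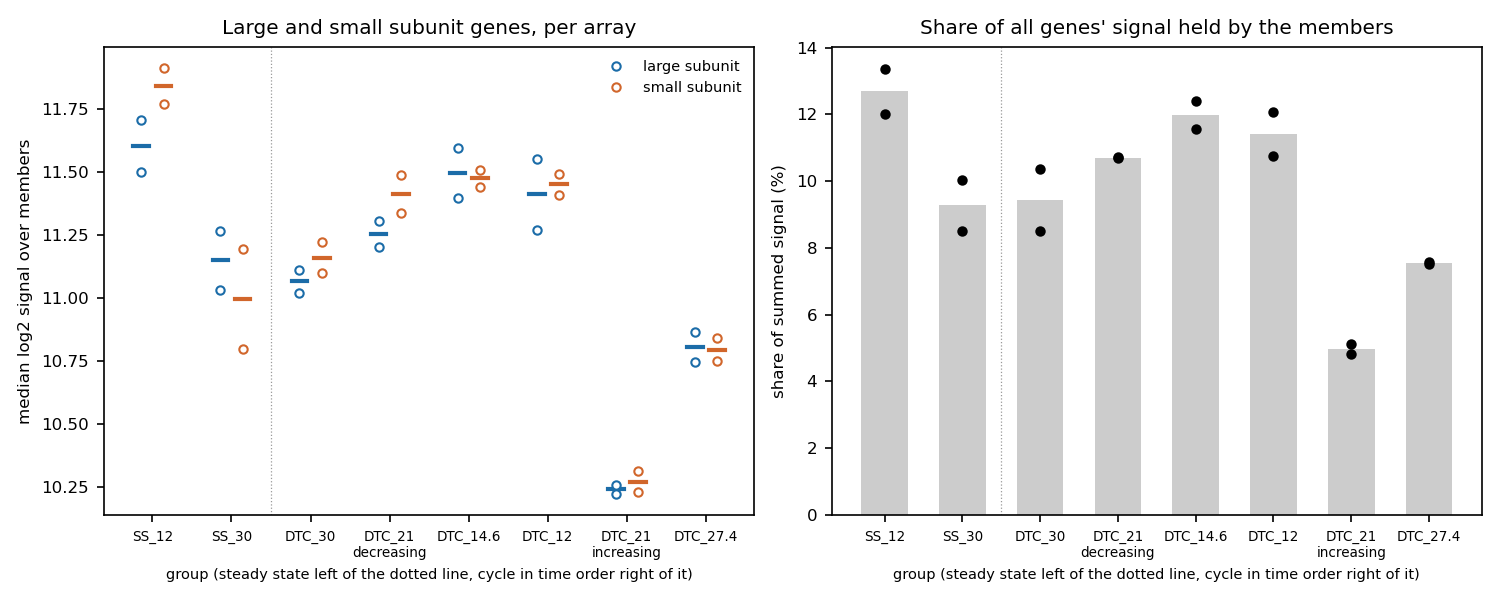
Left, median log2 signal of the 42 large subunit (blue) and 33 small subunit (orange) genes on each array (circles) with group means (lines); right, the members' share of the summed signal of all genes in percent, with bars for group means and points for arrays. The 2 arrays at DTC_21_increasing are the lowest in both plots, at shares of 5.12% and 4.82%, and the 2 arrays of SS_12 reach 13.4% and 12.0%.

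Among the 6 points of the cycle, 70 of the 75 members had their lowest mean at DTC_21_increasing, as did 28.4% of all genes. Highest means were spread over the cold points, with 32 members at DTC_14.6, 31 at DTC_12 and 8 at DTC_21_decreasing, where 12.5%, 25.6% and 12.5% of all genes had theirs. RPL15B alone was highest at DTC_21_increasing. With the constant cultures included, 51 members were highest in SS_12 and 69 were lowest at DTC_21_increasing. The shares of all genes were not counted over these 8 groups, so both counts stand without a background.

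A difference among the cycle points was called by limma's moderated F test for 64 of the 75 members, 36 large and 28 small subunit genes, where 48.7% of all genes were called. The 11 without a call were RPL9B, RPL10, RPL13B, RPL15B, RPL17A, RPL37B, RPS21B, RPS26A, RPS29A, RPS29B and RPS31. A cosine and sine of 24 h was called for 54 members, where 43.6% of all genes were called. That count was 35 without the array numbered 1 at DTC_21_increasing and 27 at an adjusted p under 0.01. Fitted peaks of these 54 lay between hour 4.26 (RPS28B) and hour 8.77 (RPL9A), with a median at hour 6.62. A single wave has its peak opposite its trough, and the lowest means lay at hour 18. The fitted hour is therefore not a measured maximum. Among the 75 members, measured means were highest at hour 9 for 32, at hour 12 for 31 and at hour 6 for 8. The largest fitted amplitudes were 1.74 for RPL7B, 1.11 for RPL22B, 1.06 for RPS26B, 0.92 for RPL13A, 0.81 for RPL7A, 0.80 for RPL36A, 0.78 for RPS29B, 0.74 for RPL31B and 0.73 each for RPS9A and RPS7B.

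**Figure D2:**
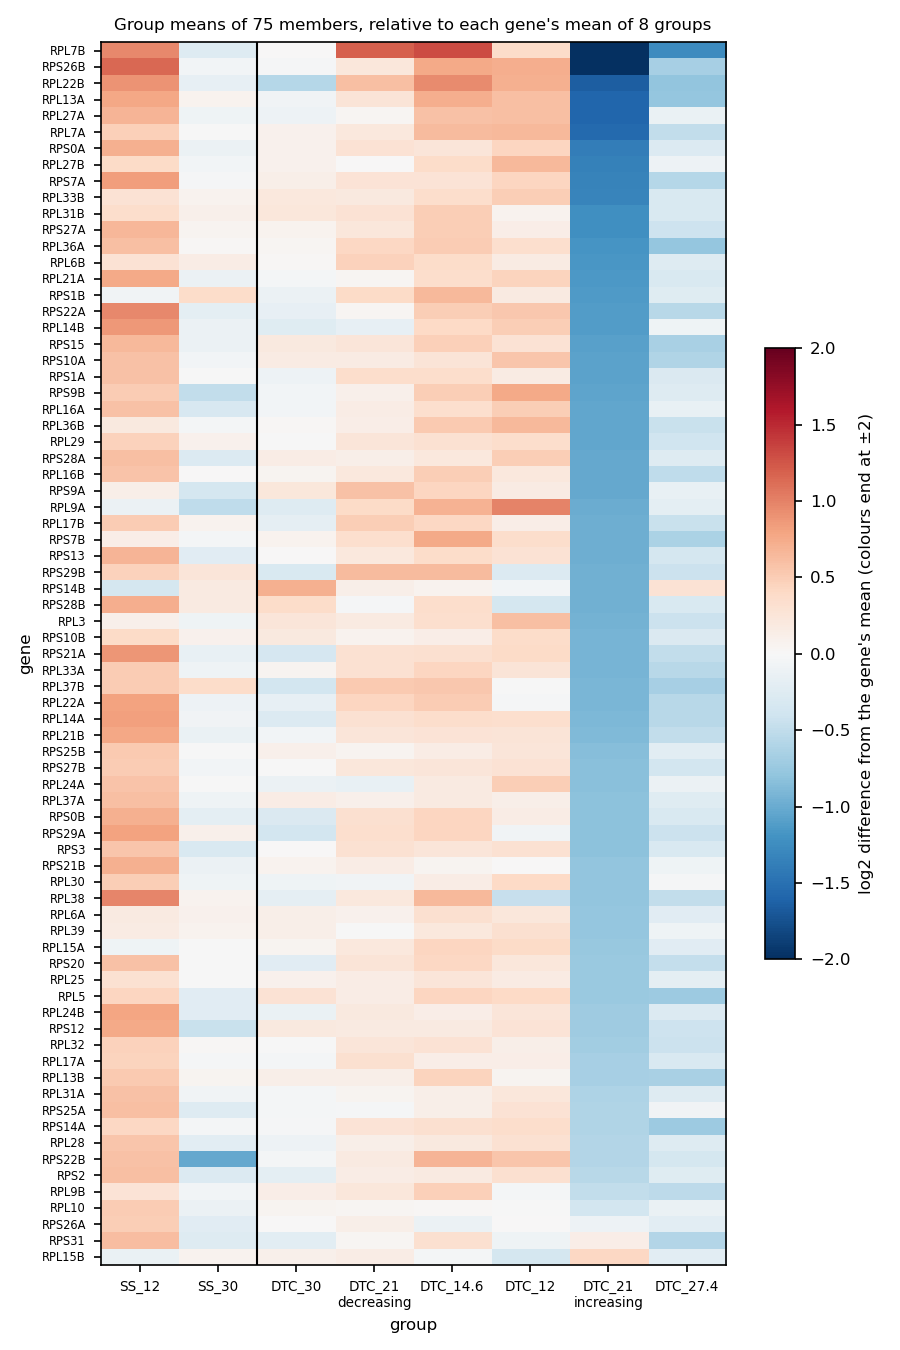
Group means of the 75 members as log2 differences from each gene's mean over the 8 groups, ordered by the value at DTC_21_increasing; blue is below and red above the gene's mean, and colours end at 2 in either direction. The column DTC_21_increasing is blue in nearly all rows and SS_12 is mostly red, while RPL15B at the foot is red at DTC_21_increasing.

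The 2 passages through 21 °C have the same temperature but opposite directions of change. At DTC_21_decreasing 65 of the 75 members were higher than at DTC_21_increasing and 0 were lower, where 18.7% of all genes were higher and 15.2% lower; at an unadjusted p under 0.05 the limma counts were 71 and 0. The median log2 change of the members was 1.15, against 0.04 over all genes. For 72 members both DTC_21_decreasing arrays lay above both DTC_21_increasing arrays, as they did for 40.0% of all genes. Large subunit genes were called in 35 of 42 cases with a median change of 1.15, and small subunit genes in 30 of 33 cases with the same median of 1.15. Copies A were called in 27 of 29 measured pairs, copies B in 25 of 29, and members without a measured partner in 13 of 17.

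RPL7B, a copy of the gene for large subunit protein uL30, showed the largest difference. Its log2 signal was 10.95 and 11.06 at DTC_21_decreasing, against 7.37 and 7.56 at DTC_21_increasing. Over the rest of the cycle it was 9.33 and 10.30 at DTC_30, 10.50 and 11.73 at DTC_14.6, 10.38 and 9.97 at DTC_12, and 8.56 and 8.55 at DTC_27.4. Both warming arrays at 21 °C were therefore the lowest of the 12, and the difference of 3.54 ± 0.41 (SE) is 11.6-fold (limma, adjusted p = 4.62e-05). A second probe set of RPL7B gave a smaller change of 2.35.

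RPS26B, a copy of the gene for a small subunit protein near the exit of the messenger RNA channel, had 9.45 and 9.80 at DTC_21_decreasing, against 7.27 and 7.28 at DTC_21_increasing. The change of 2.35 ± 0.26 is 5.10-fold (limma, adjusted p = 2.89e-05). RPL22B, a copy of a gene whose protein yeast can grow without, had 9.11 and 9.23 at DTC_21_decreasing, against 7.01 and 6.81 at DTC_21_increasing. Its change of 2.26 ± 0.26 is 4.78-fold (limma, adjusted p = 4.68e-05). Neither gene's arrays overlapped between the groups.

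RPL13A had 10.84 and 10.99 at DTC_21_decreasing, against 9.23 and 8.90 at DTC_21_increasing, a change of 1.85 ± 0.29. RPS0A, for a protein needed to mature the small subunit, had 11.16 and 11.44 at DTC_21_decreasing, against 9.61 and 9.64 at DTC_21_increasing, a change of 1.68 ± 0.22. Both pairs of arrays were clear of each other, and both genes passed (limma, adjusted p = 0.000411 and 0.000104). Changes of RPL6B, RPL27A, RPS7A and RPS9A were 1.62, 1.62, 1.62 and 1.61, all called. A second probe set of RPL27A, with a mean log2 signal of 10.31 against 10.45 for the one used, gave a smaller change of 0.70. RPL7A was called at 1.76 ± 0.29, but its 3 probe sets disagreed: a dim one, with a mean log2 signal of 4.89, gave -1.90, and the mean of the 3 gave 0.45 without a call.

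**Figure D3:**
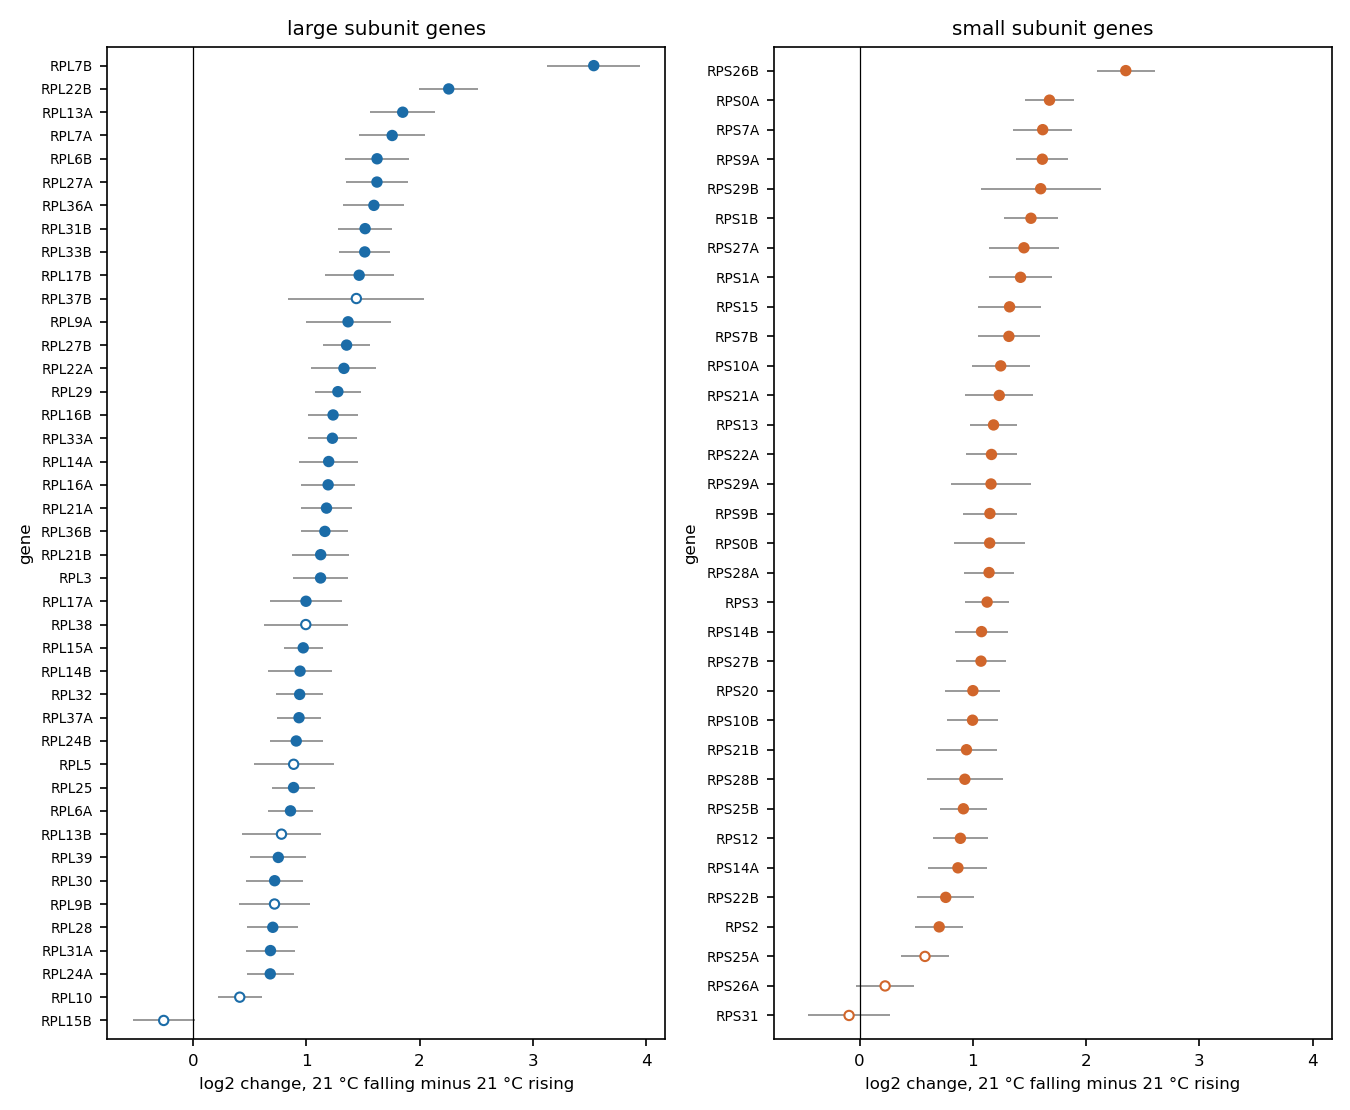
Log2 change of each member, 21 °C with falling minus 21 °C with rising temperature, for large subunit (left) and small subunit (right) genes; points are limma estimates with standard errors as bars, filled where called. RPL7B lies furthest right at 3.54, and 65 of 75 points are filled, all of them right of 0.

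Of the 10 members not called, 7 had arrays that did not overlap between the groups, namely RPL5, RPL9B, RPL10, RPL13B, RPL37B, RPL38 and RPS25A, all higher at DTC_21_decreasing. Of all genes not called, 32.2% were apart in this direction, so such a gap alone says little. Their changes lay between 0.41 and 1.44. RPL10, for the protein added last in the maturation of the large subunit, had 11.97 and 12.14 at DTC_21_decreasing, against 11.59 and 11.69 at DTC_21_increasing. The other 3 were RPL15B at -0.26 ± 0.27, RPS31 at -0.09 ± 0.36 and RPS26A at 0.23 ± 0.26. RPS31 encodes a fusion of ubiquitin to a small subunit protein, and its signal was 11.59 and 11.53 at DTC_21_decreasing, against 11.55 and 11.76 at DTC_21_increasing.

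Array medians over all genes differed by 0.12 between these groups, 7.00 at DTC_21_decreasing against 6.88 at DTC_21_increasing. With each array centred on its median, 56 members were called higher. The counts without 1 of the 4 arrays were 49 to 53. Members on probe sets marked as unique were called in 38 of 45 cases, and those on sets that may also bind other transcripts in 27 of 30. Shared probe sets of paralog pairs, which were not members, were called higher for 20 of 27 pairs, where 18.9% of all tested features were, with a median change of 1.01. The shared sets ran from 0.20 for RPS8A and RPS8B to 1.71 for RPL43A and RPL43B.

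The steps around this point were compared after the values had been seen, and they share their arrays with the comparison above. Between DTC_12 and DTC_21_increasing, 6 h apart, 63 members were lower at DTC_21_increasing and 1 was higher, where 24.0% of all genes were lower and 22.0% higher. The median change was -1.18. RPS26B fell by 2.85, RPL7B by 2.71, RPL22B by 2.37, RPL7A by 2.20, RPL13A and RPL27A each by 2.18 and RPL27B by 2.00. RPL15B was the single rise, at 0.76 ± 0.27 (limma, adjusted p = 0.0377). Its log2 signal was 10.01 and 10.25 at DTC_21_increasing, against 9.37 and 9.36 at DTC_12, and no call remained without any 1 of these 4 arrays.

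Between DTC_21_increasing and DTC_27.4, 3 h later, 15 members were higher at DTC_27.4 and 0 lower, where 6.49% of all genes were higher and 3.29% lower; 39 were higher and 1 lower at an unadjusted p under 0.05 by limma. RPS26B had 8.55 and 8.92 at DTC_27.4, against 7.27 and 7.28 at DTC_21_increasing, a rise of 1.46 ± 0.26. RPL27A rose by 1.45, RPL27B by 1.25, RPS14B by 1.24 and RPS0A by 1.11. The call count was 3 without either array of DTC_21_increasing, 2 without the array numbered 2 at DTC_27.4, 6 with arrays centred on their median and 26 with the third array at 27.4 °C added. The median change was 0.54.

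Constant cold was compared with constant warmth in the chemostats without a cycle. In SS_12, 26 members were higher than in SS_30 and 0 lower, where 9.97% of all genes were higher and 12.2% lower; at an unadjusted p under 0.05 limma gave 42 higher and 1 lower. The median change was 0.61, against -0.01 over all genes. Large subunit genes were called in 12 of 42 cases with a median of 0.57, and small subunit genes in 14 of 33 with a median of 0.77. All genes' array medians were 6.92 in SS_12 and 7.04 in SS_30. The ACT1 ratio was 1.46 and 1.82 in SS_12, against 1.42 and 1.19 in SS_30, and its part in the result was not tested.

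RPS22B, a copy of the gene for small subunit protein uS8, rose most. It had 11.38 and 11.04 in SS_12, against 9.38 and 9.83 in SS_30, a change of 1.61 ± 0.25 or 3.04-fold (limma, adjusted p = 0.00118). Its other copy RPS22A had 13.35 and 13.15 in SS_12, against 11.89 and 12.30 in SS_30, a change of 1.15 ± 0.22. Arrays of both copies were apart between the groups.

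RPS26B had 10.91 and 10.20 in SS_12, against 9.17 and 9.51 in SS_30, a change of 1.21 ± 0.26. RPS12 had 12.30 and 12.08 in SS_12, against 10.78 and 11.19 in SS_30, a change of 1.20 ± 0.24. Further called rises were 1.06 for RPL22B, 1.03 for RPL24B, 1.02 for RPS21A, 1.01 for RPS9B, 0.98 for RPL14B and 0.91 for RPS13. RPL7B reached 1.22 ± 0.41 without a call.

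Of the 26 members called higher in SS_12, 24 were among the 65 called at DTC_21_decreasing. RPL10 and RPS25A were the 2 others. Because 65 of all 75 members were called at DTC_21_decreasing, most of any 26 members would be shared, and this overlap says little. The arrays of both comparisons are different, but a single fit gave the spread for both. The steady-state count depended on the fit: 10 members were called with quantile normalization and 4 with only the 4 steady-state arrays. It was 4 without the array numbered 1 of SS_12, 18 without the one numbered 2, 2 without the array numbered 1 of SS_30 and 16 without the one numbered 2. Shared probe sets were called higher for 12 of 27 pairs, where 10.1% of all tested features were.

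Within the cycle fewer members were called between the coldest and the warmest point. At DTC_12, 7 members were higher than at DTC_30 and 1 lower, where 16.5% of all genes were higher and 16.3% lower. The median change was 0.29, with 0.31 for large and 0.29 for small subunit genes. RPL22B had 9.27 and 9.29 at DTC_12, against 8.21 and 7.78 at DTC_30, a change of 1.28 ± 0.26 (limma, adjusted p = 0.00287). RPL9A had 10.02 and 10.25 at DTC_12, against 9.06 and 8.70 at DTC_30, a change of 1.25 ± 0.38. The arrays of both genes did not overlap.

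The other rises at DTC_12 were 0.82 for RPS9B, 0.76 for RPS26B, 0.69 for RPS22A, 0.63 for RPL36B and 0.61 for RPL24A. RPS14B, whose transcript is kept low by the encoded protein, had 10.24 and 10.14 at DTC_12, against 10.80 and 11.12 at DTC_30, and fell by 0.77 (limma, adjusted p = 0.0258). Its arrays were apart. These calls were few and moved with single arrays, with 2 rises left without the array numbered 1 at DTC_30, 1 without that numbered 1 at DTC_12 and 3 without that numbered 2 there. The fall of RPS14B was lost without either array of DTC_12 or the second of DTC_30. Shared sets were called higher for 2 of 27 pairs, where 16.4% of all tested features were.

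The difference of both temperature effects, the one in the cycle minus the one at constant temperature, was called for 1 member. The share of all genes was 6.56% in the upward and 6.33% in the downward direction, and limma gave 1 member upward and 8 downward at an unadjusted p under 0.05. The member was RPS12, for a protein of the small subunit beak, at -1.13 ± 0.34 (adjusted p = 0.0489). RPS12 had 11.74 and 11.66 at DTC_12 and 11.80 and 11.45 at DTC_30, against 12.30 and 12.08 in SS_12 and 10.78 and 11.19 in SS_30. The cycle arrays of both temperatures lay between those of the constant cultures. The call of RPS12 was lost under 12 of 20 alternatives, 7 of the 8 that leave out 1 array among them. The median difference over the 75 members was -0.35. Quantile normalization put the median of large subunit genes at 0.0531 and that of small subunit genes at -0.182, so the order of both temperature effects over the large subunit depended on the scaling.

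Among the 27 shared probe sets 2 were lower in this difference, where 6.32% of all tested features were. The set for RPL8A and RPL8B, copies of a large subunit protein gene, had 11.73 and 11.74 at DTC_12 and 11.61 and 11.72 at DTC_30, against 12.50 and 12.56 in SS_12 and 10.54 and 10.74 in SS_30. Its difference of -1.82 ± 0.28 (limma, adjusted p = 0.0022) was called under all 20 alternatives. The set for RPS19A and RPS19B had -1.34 ± 0.41, a call lost under 12 of 20 alternatives.

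Direct comparison of cycling with constant cultures at one temperature gave few calls of members. At DTC_30, 0 members were higher and 0 lower than in SS_30, where 0.336% of all genes were higher and 0.866% lower; an unadjusted p under 0.05 from limma was reached by 4 members upward and 0 downward. The median change was 0.08. RPS22B had 10.34 and 10.83 at DTC_30, against 9.38 and 9.83 in SS_30, a difference of 0.98 ± 0.25 without a call (adjusted p = 0.0925). Of the shared sets that of RPL8A and RPL8B was higher at DTC_30, by 1.03 ± 0.20 (limma, adjusted p = 0.0325), where 0.385% of all tested features were; no call remained without any 1 of these 4 arrays.

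At DTC_12, 0 members were higher and 2 lower than in SS_12, where 8.84% of all genes were higher and 9.35% lower; unadjusted limma counts were 3 and 8. RPL38 had 10.69 and 10.06 at DTC_12, against 11.83 and 11.79 in SS_12, and fell by 1.44. RPS28B, whose transcript is degraded through its own protein and Edc3, had 11.29 and 10.86 at DTC_12, against 12.40 and 11.90 in SS_12, and fell by 1.07. The adjusted p-values from limma were 0.021 and 0.0443, and neither gene's arrays overlapped. Both calls were lost without either array of SS_12 or the one numbered 2 of DTC_12, and that of RPS28B also without the one numbered 1. The median over all members was -0.29, and these comparisons share arrays with those of cold and warmth. Shared sets were lower for 4 of 27 pairs, where 9.44% of all tested features were: RPS19 fell by 1.20, RPS30 by 0.94, RPL23 by 0.81 and RPL8 by 0.79. Each of these calls was lost without at least 1 of the 4 arrays.

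The medians of large and small subunit genes lay close to each other in all groups. The median of large minus that of small subunit genes on an array averaged -0.09 at DTC_30, -0.16 at DTC_21_decreasing, 0.02 at DTC_14.6, -0.04 at DTC_12, -0.03 at DTC_21_increasing and 0.01 at DTC_27.4. It averaged -0.24 ± 0.05 in SS_12 and 0.15 ± 0.12 in SS_30 (SD, n = 2 each). On single arrays the steady-state values were -0.20 and -0.27 in SS_12, against 0.24 and 0.07 in SS_30. The large subunit median lay below that of the small subunit on both SS_12 arrays and above it on both SS_30 arrays. Arrays of one group could also differ in sign, with 0.14 and -0.22 at DTC_12 and -0.11 and 0.16 at DTC_14.6. No test was run on these medians.

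Paralog pairs were compared through the A minus B difference within each array, which removes what both copies share. Both copies had a probe set of their own in 29 pairs, 16 large and 13 small, and these rows were tested together with all genes and the shared sets. Near-identical copies can bind each other's probes, so differences of this kind are uncertain, above all for the 30 members on sets not marked as unique. Over the cycle 8 of 29 pairs differed, where the F test called 48.8% of all tested features. The pairs were RPS26, RPL15, RPS14, RPL7, RPL13, RPS9, RPS21 and RPL31.

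RPS26A and RPS26B had the widest range. RPS26A, not called by the F test, had 12.57 and 12.92 at DTC_30, 12.67 and 13.03 at DTC_21_decreasing, 12.68 and 12.56 at DTC_14.6, 12.71 and 12.77 at DTC_12, 12.73 and 12.52 at DTC_21_increasing and 12.20 and 12.83 at DTC_27.4. RPS26B had 9.41 and 9.34, 9.45 and 9.80, 10.06 and 10.24, 10.06 and 10.20, 7.27 and 7.28, and 8.55 and 8.92 at the same points in this order. The A minus B difference thus had a range of 2.88 over the cycle (limma F test, adjusted p = 7.53e-06).

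Between DTC_12 and DTC_21_increasing RPL15A fell by 1.14, while RPL15B, the other copy of this gene for a large subunit core protein, rose by 0.76 as given above. RPL15A had 9.36 and 9.47 at DTC_21_decreasing, against 8.54 and 8.35 at DTC_21_increasing. RPL15B had 9.69 and 10.05 at DTC_21_decreasing, against 10.01 and 10.25 at DTC_21_increasing. The first copy was called at 0.97 ± 0.17 and the second was not, at -0.26 ± 0.27, and the difference between the copies had a range of 1.91 over the cycle.

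The A minus B range was 1.78 for RPL7, 1.46 for RPL13, 1.42 for RPS14 and 1.09 for RPS9. For RPS14 the A minus B difference was -0.40 at DTC_30, 0.48 at DTC_21_decreasing, 0.59 at DTC_14.6, 0.74 at DTC_12, 0.69 at DTC_21_increasing and -0.68 at DTC_27.4. The zero of such a difference depends on the 2 probe sets, and what was compared is its shift between points, which put DTC_27.4 and DTC_30 lowest. RPS14A had 10.30 and 9.41 at DTC_27.4, so its 2 arrays there were far apart. The A minus B difference on them was -0.43 and -0.93. On the third array at 27.4 °C, left out of the comparisons, RPS14A had 10.28 and the difference was 0.07.

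**Figure D4:**
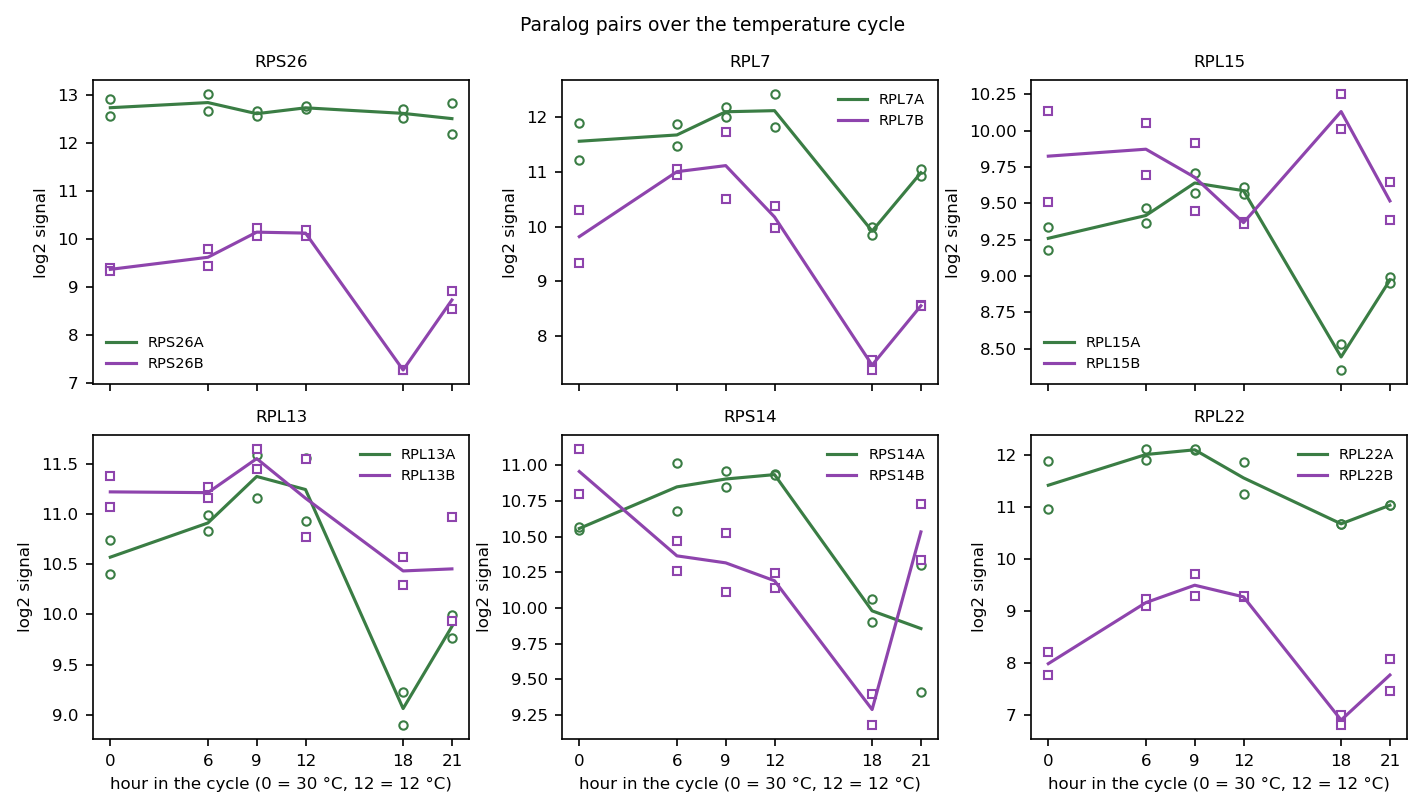
Log2 signal of 6 paralog pairs against the hour in the cycle, with A copies in green circles and B copies in purple squares for single arrays and lines through the means of 2 arrays; each panel has its own axis. RPS26A changes little on the probe set used while RPS26B drops to 7.27 and 7.28 at hour 18, and RPL15B rises there while RPL15A drops.

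Between falling and rising 21 °C, 6 of 29 pairs differed in their change, where 34.1% of all tested features were called in either direction; this pair comparison was added after the values had been seen. The B copy had the larger change in RPS26, with an A minus B change of -2.13, in RPL7 with -1.78, in RPL31 with -0.84 and in RPL6 with -0.76. The A copy had the larger change in RPL15 with 1.23 and in RPL13 with 1.07. These differences rest on 1 probe set for each copy, and other sets of the same copy gave other changes. For RPL31B the set used gave 1.52 and others 1.07 and 1.92, and for RPL31A 0.68 and another 0.92. For RPL7B it gave 3.54 and another 2.35, and for RPL7A 1.76 and others 1.48 and -1.90. For RPS26A the set used gave 0.23 and another 0.58. In 28 of 29 pairs both copies had a positive change, RPL15 being the exception. The copy with the lower mean signal changed more in 5 of the 6 pairs called and in 21 of all 29, and the part of signal level in these differences was not tested.

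**Figure D5:**
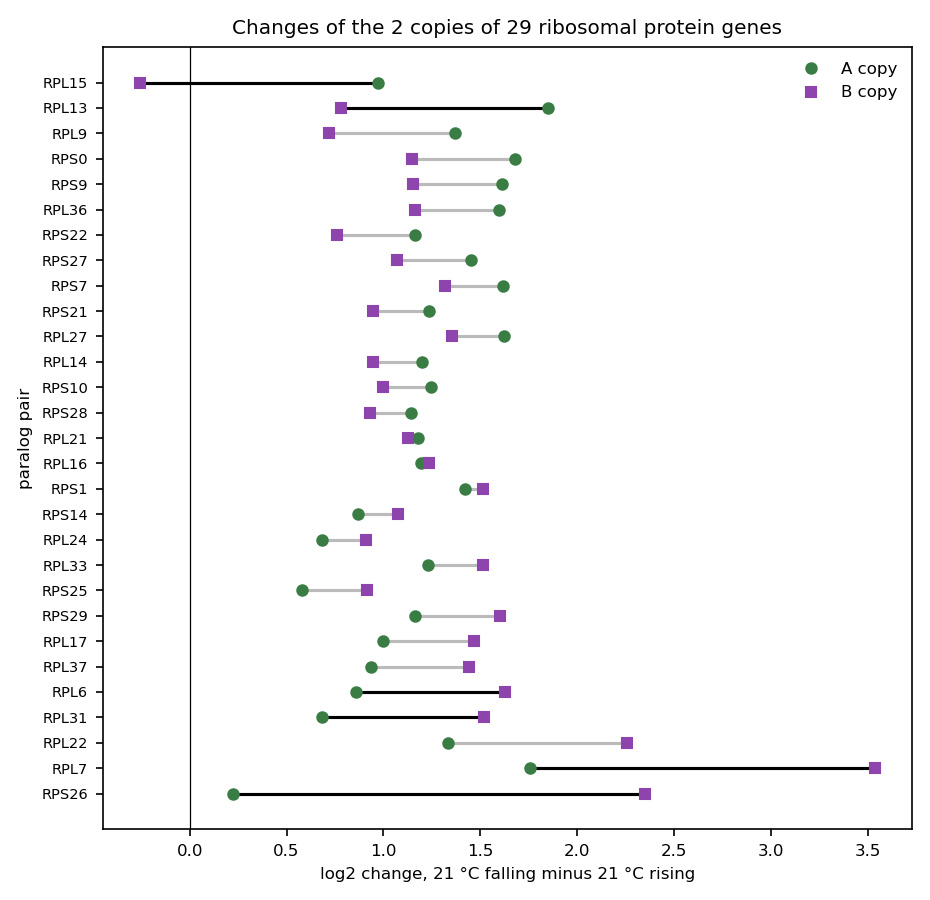
Log2 change of the A copy (green circles) and the B copy (purple squares) of 29 pairs, 21 °C with falling minus 21 °C with rising temperature; black lines mark the 6 pairs whose copies differed in change. All points but RPL15B at -0.26 lie right of 0, and the longest lines are those of RPS26 and RPL7.

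At DTC_12 over DTC_30, 8 of 29 pairs differed in their change, where 32.7% of all tested features were called in either direction. The A copy had the higher change in RPL9 with a difference of 1.43, RPS14 with 1.14, RPS28 with 1.07, RPL15 with 0.78 and RPS21 with 0.77. The B copy had the higher change in RPL22 with -1.14, RPS9 with -0.89 and RPS26 with -0.76. RPL22A, for instance, had 11.88 and 11.26 at DTC_12, against 10.97 and 11.88 at DTC_30, with overlapping arrays, while RPL22B was higher in both arrays as given above. Without the array numbered 2 at either temperature 3 pairs were called, and without that numbered 1 at DTC_12 5 were. The call was lost under 8 of 16 alternatives for RPL9, 7 for RPL22, 6 each for RPS28 and RPL15, 2 for RPS9 and 1 for RPS14. Another probe set gave 0.09 for RPS28A, against 0.34 with the one used, and -0.26 for RPS28B, against -0.72.

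In SS_12 over SS_30, 2 of 29 pairs differed, where 22.3% of all tested features were called in either direction. RPS1A had 12.61 and 12.44 in SS_12, against 11.82 and 12.04 in SS_30, while RPS1B had 10.01 and 10.06 in SS_12, against 10.49 and 10.47 in SS_30. The copies' changes had opposite signs, 0.60 ± 0.28 and -0.45 ± 0.24, neither called, and their difference was called at 1.04 ± 0.19 (limma, adjusted p = 0.00313). RPS14 was the other pair, at 1.01 ± 0.25, called also between the extremes of the cycle with the same sign. The count was 1 without the array numbered 1 of SS_12 or either array of SS_30.

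The RPS1 pair was also called in the difference of both temperature effects, at -1.08 ± 0.27, where 12.8% of all tested features were called. At DTC_12 against SS_12 it was called at -0.67 ± 0.19, where 18.3% were. It was the 1 pair called in each of these 2 comparisons, and its calls were lost under 9 of 20 and 8 of 16 alternatives. Both comparisons share the SS_12 arrays with that of SS_12 over SS_30, so the calls of this pair are not independent of each other. The A minus B difference was 2.49 in SS_12, against 1.45 in SS_30, 1.85 at DTC_30 and 1.82 at DTC_12. RPS1A had 12.24 and 11.97 at DTC_12, against 12.61 and 12.44 in SS_12, and RPS1B had 10.42 and 10.14 at DTC_12, against 10.01 and 10.06 in SS_12.

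Stalk and associated genes outside the naming rule were listed for comparison: RPP0, RPP1A, RPP1B, RPP2A and RPP2B of the flexible stalk that recruits translation factors, the small subunit scaffold protein ASC1, and STM1, a clamp on idle ribosomes. All 7 were measured. At DTC_21_decreasing over DTC_21_increasing 4 were higher, ASC1 by 1.03, RPP1B by 0.98, RPP2A by 0.95 and RPP1A by 0.70, and 0 lower, beside 18.7% and 15.2% of all genes. The unadjusted limma counts were also 4 and 0. In SS_12 over SS_30 5 were higher, RPP1A by 0.92, RPP2A by 0.89, RPP2B by 0.86, RPP1B by 0.78 and ASC1 by 0.74, beside 9.97% of all genes, and STM1 had a change of 0.01 ± 0.31. At DTC_12 over DTC_30 limma called 0, also at an unadjusted p under 0.05, beside 16.5% of all genes higher and 16.3% lower. A count of 0 among 7 says little.

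Known regulators of ribosomal protein genes were listed as well, and all 17 were measured. At DTC_21_decreasing over DTC_21_increasing 5 were higher and 1 lower, beside 18.7% and 15.2% of all genes, so these counts are not far from the shares of all genes. TOD6, a repressor of ribosome assembly genes, had 7.24 and 7.25 at DTC_21_decreasing, against 4.49 and 4.73 at DTC_21_increasing, a change of 2.63 ± 0.23. IFH1, the coactivator at ribosomal protein promoters, had 6.84 and 6.68 at DTC_21_decreasing, against 5.25 and 5.33 at DTC_21_increasing, a change of 1.47 ± 0.22. The arrays of both genes were clear of each other. REB1 rose by 1.81, RAP1 by 0.91 and HMO1, a DNA-binding protein found at these promoters, by 0.81. YAK1, a kinase that restrains growth, had 8.16 and 7.92 at DTC_21_decreasing, against 9.52 and 9.52 at DTC_21_increasing, and fell by 1.48.

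In SS_12 over SS_30 1 regulator was higher and 4 lower, beside 9.97% and 12.2% of all genes. HMO1 was higher by 1.43, while CRF1 fell by 1.46, ESA1 by 1.36, IFH1 by 1.15 and STB3 by 1.02. IFH1 had 5.49 and 5.95 in SS_12, against 7.04 and 6.70 in SS_30, a direction opposite to that of the 26 members called there. CRF1 is a corepressor at these promoters, ESA1 an acetyltransferase and STB3 a repressor. At DTC_12 over DTC_30 6 regulators were higher, HMO1 by 1.35, TBF1 by 1.15, CRF1 by 1.13, TOD6 by 1.10, RAP1 by 1.06 and DOT6 by 0.87, and ESA1 fell by 1.26, beside 16.5% of all genes higher and 16.3% lower. FHL1 and SFP1 were called in none of these 3 comparisons, with unadjusted p over 0.05 in each.

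Dedicated chaperones and importers guard new ribosomal proteins on their way to the nucleus, and all 9 listed were measured. At DTC_21_decreasing over DTC_21_increasing all 9 were higher, beside 18.7% of all genes, with a median change of 2.38. RRB1, the chaperone of Rpl3, had 7.47 and 7.25 at DTC_21_decreasing, against 4.29 and 4.29 at DTC_21_increasing, a change of 3.07 ± 0.22. RPL3 itself had 10.83 and 11.12 at DTC_21_decreasing, against 9.70 and 9.99 at DTC_21_increasing, a change of 1.13 ± 0.24. Both were apart between the groups.

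KAP123, an importin for ribosomal proteins, rose by 2.82, BCP1 (for Rpl23) by 2.46, SQT1 (for Rpl10) by 2.38, TSR2 (for Rps26) by 1.69, TSR4 (for Rps2) by 1.37 and YAR1 (for Rps3) by 1.10. SYO1, which brings Rpl5 and Rpl11 into the nucleus together, was not above background on either array at DTC_21_increasing, so its difference is at least 5.36-fold. ACL4, the chaperone of Rpl4, was not above background there either and was at least 2.76-fold higher. The bound sets the mean of the brighter group against the background. TSR2 had 3.61 and 3.81 at DTC_21_increasing, against a background of 3.80, so its change also starts from values near background.

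In SS_12 over SS_30 limma called 0 of these 9 genes, also at an unadjusted p under 0.05, with a median change of 0.09. Of all genes 9.97% were higher and 12.2% lower there, so a count of 0 among 9 says little. At DTC_12 over DTC_30 4 were higher, ACL4 by 1.30, SQT1 and KAP123 each by 1.18 and RRB1 by 1.11, beside 16.5% of all genes. All 9 also passed the F test over the cycle, as did 11 of the 17 regulators and 3 of the 7 stalk and associated genes, beside 48.7% of all genes.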

How the data were processed

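The series holds 17 Affymetrix S98 yeast arrays. What the authors deposited is a linear intensity for each probe set, and RMA is named in the submitters' processing notes. The values reach 0 and each array has a trimmed mean of 240.2 (2% of probe sets left out at either end), which is a scaling per array, so the exact steps are not given in the sources used here. No depth exists for arrays, and 2 arrays a group limit the precision.

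Here intensities were floored at 1 before the log2 transform. Of 9335 probe sets, 6504 had 1 gene in the platform annotation, 328 several and 2443 none, and 60 were controls; all 6504 names were matched to the R64 reference. The set with the highest mean stood for a gene. Background was the 95th percentile of 28 control sets without a target. Array 3 at 27.4 °C was left out, because the series describes an analytical duplicate there and the labels do not say which array it is.

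Limma 3.58.1 (R 4.3.3) was fitted with a mean for each of 8 groups over 16 arrays (8 residual degrees of freedom), two-sided, with Benjamini-Hochberg adjustment over 5656 genes, or over 5712 features with paralog differences and shared sets. The 24-h model used the 12 cycle arrays. Scripts were tested on simulated data. Deviations of same-numbered arrays correlated at -0.4 to 0.491 over 28 pairs of groups, with a median of 0.033 and 7 above 0.1. Some groups thus deviated together, as SS_30 and DTC_14.6 at 0.491, and others in opposite directions, as DTC_30 and DTC_12 at -0.4. The numbers gave no common pairing and were not used as pairs. Named genes are up to 10 of the largest called changes in a direction, 10 of the largest amplitude, 6 pairs of the largest difference and the listed genes; those named outside this rule were chosen after their values were seen. Members and lists were chosen with earlier results of these data known. Alternatives were other normalizations, floors, filters, probe set rules, fits and arrays. Sequences and promoters were not analysed here.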

Additional observations from a re-analysis of the deposited data

Results flagged for a closer look

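RPS12 was picked out because its cold effect in the cycle and its cold effect at constant temperature differed by a test of the difference itself, at -1.13 on the log2 scale (limma, adjusted p = 0.0489). Its change was 0.08 ± 0.24 (SE) at DTC_12 over DTC_30 and 1.20 ± 0.24 in SS_12 over SS_30. The call was lost under 12 of its 20 alternatives, among them without either array of SS_12, SS_30 or DTC_12 or the array numbered 1 at DTC_30, while the sign was negative in all of them. The cause was not tested. The same test of the difference picked out 3 further results: the A minus B difference of the RPS1 pair at -1.08, the shared probe set of RPL8A and RPL8B at -1.82 and that of RPS19A and RPS19B at -1.34. The call was lost under 9, 0 and 12 of 20 alternatives in this order, and the sign was negative in all of them.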

How the results depend on the processing

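The counts of members higher at falling over rising 21 °C and of members called by the F test over the cycle stayed within 1.5 times under every alternative run. Quantile normalization gave 10 members higher in SS_12, 0 with a called difference of cold effects, 1 lower at DTC_12 against SS_12, and 5 steady-state paralog pairs. It moved the median of large subunit genes to 0.304 in SS_12 over SS_30, -0.0666 at DTC_12 against SS_12 and 0.0531 for the difference of cold effects, which turned its sign, and those of small subunit genes to 0.457, -0.0842 and -0.182. Centring arrays on their median gave 3 rises at DTC_12, 6 at DTC_27.4 over rising 21 °C, and median differences of cold effects of -0.441 and -0.631 for large and small subunit genes. A floor of 12 gave 1 rise at DTC_12 against SS_12, 3 falls in the difference, 25 rises at DTC_27.4 and 4 steady-state pairs. Genes above background alone gave 1 rise at DTC_12 against SS_12. The mean of probe sets gave 1 fall there and a small subunit median of 0.609 in SS_12 over SS_30. An intensity trend with a robust prior gave 11 rises at DTC_12 over DTC_30, 1 rise at DTC_30 against SS_30, 1 rise and 4 falls at DTC_12 against SS_12, 24 rises at DTC_27.4, and pair calls of 0 for both cold effects and 2 over the cycle. Only the groups compared gave 4 members higher in SS_12, 2 higher and 0 lower at DTC_12 over DTC_30, 0 lower at DTC_12 against SS_12, 0 in the difference, 0 rises at DTC_27.4 and 1 pair at DTC_12 over DTC_30; it has fewer degrees of freedom and could not be fitted to the harmonic. Array 3 added gave 1 rise at DTC_12 against SS_12 and 26 at DTC_27.4, and in place of array 1 it gave 23. An adjusted p under 0.01 gave 6 members higher in SS_12, 1 higher and 0 lower at DTC_12 over DTC_30, 0 lower at DTC_12 against SS_12, 0 in the difference, 0 rises at rising 21 °C, 5 at DTC_27.4, 27 for the harmonic, and 1, 2 and 5 pairs in the steady state, between the cycle extremes and over the cycle. The causes were not tested.

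Without single arrays, members were called higher 2 to 18 times in SS_12 over SS_30, 1 to 8 at DTC_12 over DTC_30 (0 to 2 lower), 0 to 1 in the difference of cold effects (0 to 5 lower), 0 at rising 21 °C over DTC_12, and 2 to 10 at DTC_27.4, with 0 to 2 lower at DTC_12 against SS_12. The harmonic was called for 35 to 56 members, the lowest without the array numbered 1 at DTC_21_increasing. Pairs were called 3 to 7 times at DTC_12 over DTC_30 and 1 to 3 times in SS_12 over SS_30. Large subunit medians ran over 0.359 to 0.755 in SS_12 over SS_30, 0.172 to 0.423 at DTC_12 over DTC_30, -0.13 to 0.208 at DTC_30 against SS_30, -0.36 to -0.0865 at DTC_12 against SS_12 and -0.425 to -0.129 for the difference. Small subunit medians ran over 0.572 to 0.893, -0.084 to 0.318 at DTC_30 against SS_30, -0.428 to -0.23 at DTC_12 against SS_12 and -0.601 to -0.277 for the difference. With a replicate block for the array number, 63 members were higher at falling 21 °C, 27 in SS_12 and 7 at DTC_12 over DTC_30. With this block 48 followed the harmonic, 1 was lower at DTC_12 against SS_12 and 0 in the difference. The numbers gave no common pairing of the arrays.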
